A study of Rattus norvegicus with 16 samples.

Results

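A set of 10 genes of matrix breakdown and its control was examined in rat left ventricle: the matrix metalloproteinases Mmp2, Mmp3, Mmp9, Mmp11, Mmp14 and Mmp23, and the tissue inhibitors Timp1, Timp2, Timp3 and Timp4. The list was drawn up with earlier results of these data known. Its probe sets were chosen by symbol, as those whose annotation names exactly 1 gene and that gene is on the list. That gave 19 probe sets for the 10 genes, out of 14217 genes with a probe set that names exactly 1 gene. The tissue came from adult male Sprague-Dawley rats, in 4 groups of 4 arrays. These were a control group and rats with an aortocaval fistula (ACF) of 8, 16 or 24 weeks. The fistula is an artificial opening between aorta and vena cava that puts a volume load on the heart. A body weight of 300 to 350 g is given for every array. The study's methods state that range for the rats in which the fistula was made, so it is not read as a weight at sampling. The labels call the control group baseline while the text of the series speaks of sham, so age and surgery cannot be told apart from the fistula in any comparison with control. The labels of the 24-week arrays are not uniform either, since their descriptions read 24, 25, 26 and 27 weeks. No drug treatment and no difference of genotype is named by the labels, and each array was taken as 1 rat. The labels do not name the animals, so p measures the spread between these samples.

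Metalloproteinases are zinc-dependent enzymes, made as inactive precursors, that cut collagen, gelatin, elastin and other proteins of the space between cells. Timp proteins bind the active site of these enzymes and hold them in check, and a complex of Timp2 with the membrane-bound enzyme Mmp14 also takes part in activating the precursor of Mmp2. In the heart, fibroblasts, macrophages, vessel cells and myocytes all contribute to this system, which is known for its part in the remodelling of the ventricle under load. Timp1 is known as the inducible inhibitor, Timp3 as the one bound to matrix, and Timp4 as the one with high expression in heart.

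Sequences upstream of the genes are shown for the 3 inhibitors whose levels at 16 weeks moved furthest from control, so that the opposite changes of Timp1 and Timp4 can be seen beside their promoters. They are RefSeq promoters of the GRCr8 assembly, each 300 bases long and holding 250 bases before the annotated start and 50 from it, written 5′ to 3′ on the strand of the gene. Capitals mark a match to the AP-1 motif TGANTCA or to its near form TGAGTAA, and positions are counted from the annotated start. Timp1 lies on the minus strand at chrX:3771073-3771372, Timp2 on the minus strand at chr10:104089165-104089464, and Timp4 on the minus strand at chr4:149985155-149985454.
Timp1: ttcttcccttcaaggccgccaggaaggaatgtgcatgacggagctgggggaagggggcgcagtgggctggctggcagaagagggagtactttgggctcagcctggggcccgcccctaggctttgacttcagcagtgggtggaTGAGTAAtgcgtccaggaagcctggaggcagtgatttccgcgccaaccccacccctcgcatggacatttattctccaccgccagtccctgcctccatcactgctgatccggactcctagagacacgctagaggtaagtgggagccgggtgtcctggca
Timp2: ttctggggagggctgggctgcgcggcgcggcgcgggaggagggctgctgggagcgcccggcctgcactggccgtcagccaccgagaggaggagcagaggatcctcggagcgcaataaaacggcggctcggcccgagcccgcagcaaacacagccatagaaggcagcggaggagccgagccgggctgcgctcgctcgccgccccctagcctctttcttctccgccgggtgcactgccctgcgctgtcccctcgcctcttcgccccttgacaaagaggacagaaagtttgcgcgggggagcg
Timp4: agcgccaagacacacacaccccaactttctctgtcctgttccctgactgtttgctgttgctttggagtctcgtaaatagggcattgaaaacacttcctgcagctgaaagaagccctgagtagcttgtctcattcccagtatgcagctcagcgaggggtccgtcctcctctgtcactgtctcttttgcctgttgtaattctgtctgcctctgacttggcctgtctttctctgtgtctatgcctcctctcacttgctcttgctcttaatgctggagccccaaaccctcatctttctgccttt
The Timp1 promoter held TGAGTAA, which begins at -108, and no TGANTCA, whereas neither form was found in the windows of Timp2 and Timp4. Each motif was searched on both strands, and no match overlapped another in the windows printed here. TGANTCA was present in 7.33% of the 33469 promoters of this length and TGAGTAA, a form searched after the sequences had been seen, in 2.9%. A GC box, GGGCGG, was found in the Timp1 window at -142 and in the Timp2 window at -54, against 33.1% of all promoters, and the letters TATAAA, present in 14.2% of them, were in none of these 3 windows. Promoter entries were at hand for 7 of the 10 genes. The other windows held GC boxes, 4 for Mmp11, 3 for Timp3 and 2 for Mmp23, except that of Mmp3, the gene for a stromelysin. The Mmp3 window at chr8:12925031-12925330 on the plus strand is shown because it carries both AP-1 forms, TGANTCA at -71 and TGAGTAA at -144, and TATAAA at -32.
Mmp3: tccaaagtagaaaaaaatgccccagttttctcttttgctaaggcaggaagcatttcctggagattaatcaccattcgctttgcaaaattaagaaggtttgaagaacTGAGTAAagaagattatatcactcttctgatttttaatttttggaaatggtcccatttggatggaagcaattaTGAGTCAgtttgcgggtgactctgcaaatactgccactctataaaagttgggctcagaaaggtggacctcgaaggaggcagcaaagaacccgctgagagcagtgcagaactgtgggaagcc
These matches describe letters in the windows only.

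The values are log2 intensities of probe sets. The medians of the 16 deposited arrays lay at 2 levels, 6.13 to 6.17 on 9 arrays and 5.92 to 5.96 on 7, with a gap of 0.21 for which no source names a reason. All control arrays were at the higher level and all 24-week arrays at the lower level, while 1 array of 8 weeks (replicate 2) and 2 of 16 weeks (replicates 3 and 4) were at the lower level. Each array was therefore centred on its median before the fit. Cardiac muscle markers fitted the tissue label, since the mean level of 14 of them was 13.41 to 13.82 on every array, against a common median of 6.05.

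At 16 weeks after ACF, 3 members were higher than in control, Timp1, Timp2 and Mmp14, and 1 was lower, Timp4, at an adjusted p under 0.05. The test was that of limma, which steadies the spread of each gene by that of the rest, and the adjustment was that of Benjamini and Hochberg across the 14217 genes. Among all genes, 5.83% were higher and 3.26% lower by the same rule. Since the list was drawn up with earlier results of these data known, such shares are a background and no test of the list. At 8 weeks none of the 10 members passed in either direction, where 0.0492% of all genes were higher and 0.00703% lower. At 24 weeks only Timp2 passed, and it was higher, beside 0.612% of all genes higher and 0.295% lower. The shares over all genes depend on the setting themselves, as the 129 genes called at 24 weeks became 1675 without centring, 2 with array level as a block and 5 to 559 with 1 array left out. In order of time, limma gave 3, 6 and 3 members an unadjusted p under 0.05, and 1112, 3457 and 2307 of the 14217 genes. The methods' test, an unpaired comparison with equal variance, called 0, 2 and 0 members after adjustment, and 0, 220 and 0 of all genes. The median log2 difference of the 10 members from control, in order of time, was 0.13, 0.27 and 0.21, beside -0.003, -0.002 and 6e-04 over all genes. The 3 comparisons use the same 4 control arrays and are not independent of each other.

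Counted without a model, 4 members had all 4 arrays of 8 weeks above all 4 control arrays, namely Timp1, Timp2, Mmp14 and Mmp9, beside 3.43% of all genes. Timp4 alone had all 4 below, beside 2.73%. At 16 weeks, Timp1, Timp2 and Mmp14 lay entirely above control, beside 10.1% of all genes, and Timp4 entirely below, beside 6.31%. At 24 weeks, Timp1 and Timp2 lay entirely above, beside 4.82%, and no member entirely below, beside 4.47%. For 4 against 4 arrays the smallest exact two-sided permutation p is 0.0286, which is the value of every such complete separation.

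**Figure D1:**
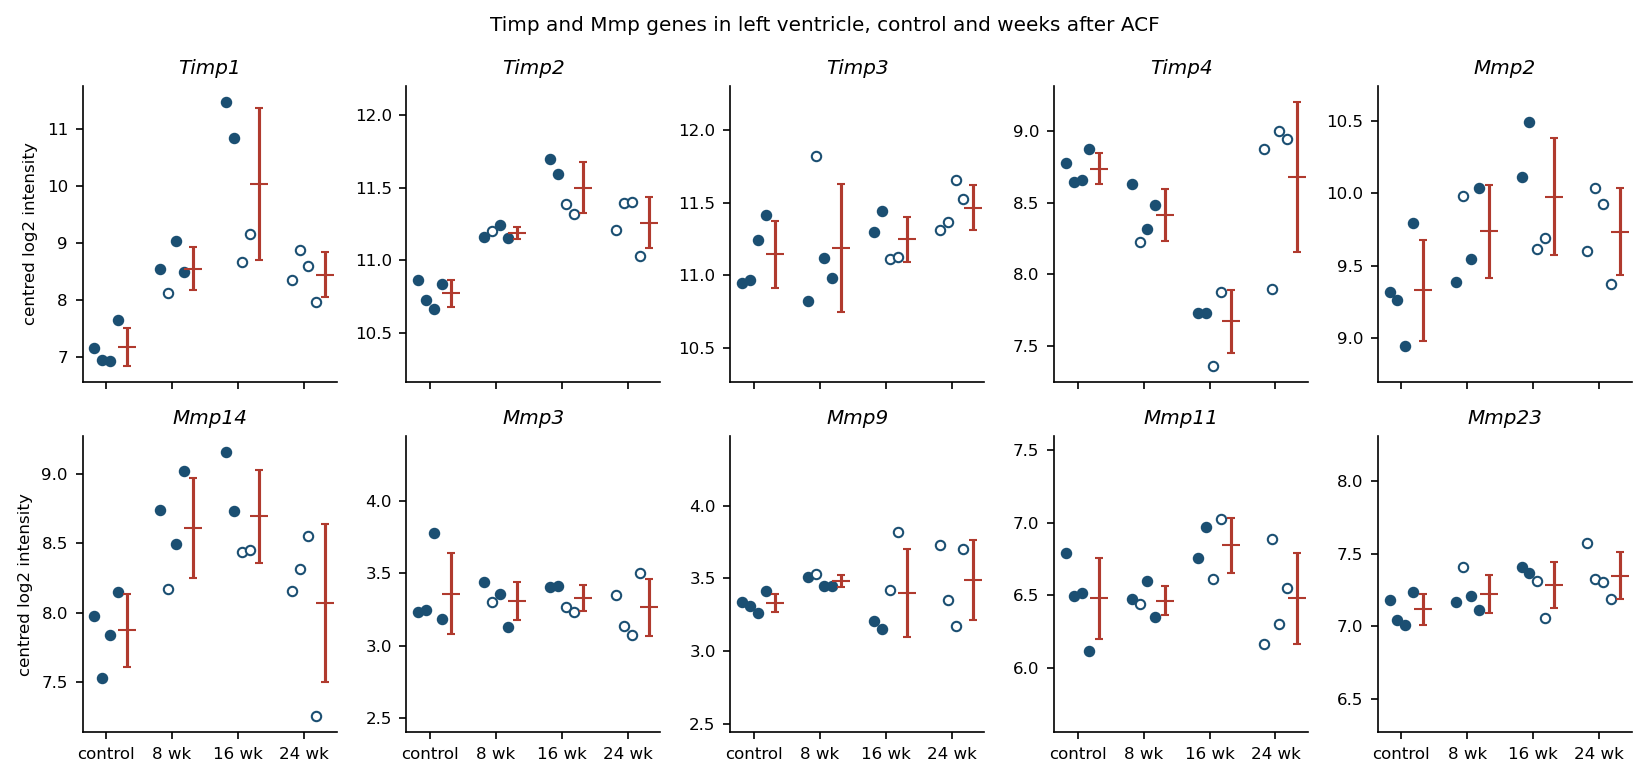
Centred log2 intensity (vertical axis, own range for each gene) of the probe set standing for each of the 10 genes on each of the 16 arrays, by group (control, and 8, 16 and 24 weeks after ACF). Filled points are arrays at the higher median level, open points arrays at the lower level, and the red mark is the mean ± SD of 4 arrays. Timp1 and Timp2 lie above control in every ACF array, and Timp4 is lowest at 16 weeks.

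Timp1, the inducible inhibitor, showed the widest change of the 10 genes. Its probe set (1367712_at) had centred log2 levels of 7.16, 6.95, 6.94 and 7.66 on the control arrays and 8.55, 8.12, 9.03 and 8.48 on those of 8 weeks. The levels were 11.47, 10.85, 8.66 and 9.15 at 16 weeks and 8.34, 8.88, 8.60 and 7.96 at 24 weeks. Every ACF array thus lay above every control array, and replicates 1 and 2 of 16 weeks stood well above all others. Against control the 16-week difference was 2.86 on the log2 scale (SE 0.45), a fold of 7.24, with an adjusted p of 0.00148 by limma. At 8 weeks it was 1.37 (SE 0.45) with an adjusted p of 0.352 by limma, and at 24 weeks 1.27 (SE 0.45) with an adjusted p of 0.164.

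Both high Timp1 arrays of 16 weeks were those at the higher level of array medians. Without them the difference at 16 weeks was 1.73 with an adjusted p of 0.00999 by limma, and without the lower-level pair it was 3.98 with an adjusted p of 1.72e-06. The methods' test gave an adjusted p of 0.102 for this gene at 16 weeks. The SD of its 4 arrays there was 1.34, against 0.33 in control. The comparison at 8 weeks passed under 4 of 28 alternatives: with only its own 8 arrays in the limma fit (adjusted p = 0.0175), with array weights (0.0464), with only arrays at the higher level (1.51, adjusted p = 0.0234) and with the array level blocked (1.75, adjusted p = 0.0221). With array level as a block, the difference at 24 weeks was 2.80 with an adjusted p of 0.0418 by limma. All control arrays and all 24-week arrays lie at different levels, so this value takes its level effect from the 8- and 16-week arrays alone. The comparison at 24 weeks passed under 3 of 27 alternatives.

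Timp2, which restrains several metalloproteinases and helps to activate Mmp2, was higher than in control at 16 and 24 weeks, with little spread between arrays. Its brighter probe set (1386940_at) had centred log2 levels of 10.86, 10.73, 10.66 and 10.84 in control and 11.16, 11.20, 11.25 and 11.15 at 8 weeks. At 16 weeks they were 11.70, 11.59, 11.39 and 11.32, and at 24 weeks 11.21, 11.40, 11.40 and 11.03. All 12 ACF arrays lay above all 4 control arrays, and the 16-week arrays above those of 8 weeks. The log2 difference from control was 0.73 (SE 0.10) at 16 weeks, a fold of 1.66, with an adjusted p of 0.000847 by limma, and it passed under 30 of 30 alternatives. At 24 weeks it was 0.49 (SE 0.10) with an adjusted p of 0.0358 by limma, and at 8 weeks 0.42 (SE 0.10) with an adjusted p of 0.16.

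The call at 24 weeks rested on single arrays. It was lost when any of control replicates 1, 2 and 3 or any of the 24-week replicates 1, 2 and 3 was left out, with log2 differences from 0.44 to 0.52 and adjusted p up to 0.144 by limma. With the deposited values not centred, the difference was 0.28 with an adjusted p of 0.138 by limma, and with array level as a block it was 0.65 with an adjusted p of 0.0869. Array level cannot be told apart from group when only control and 24 weeks are compared.

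Timp4, the inhibitor known for its expression in heart, went the other way. Its probe set (1377632_at) had centred log2 levels of 8.77, 8.64, 8.66 and 8.88 in control and 8.63, 8.22, 8.32 and 8.48 at 8 weeks. At 16 weeks the levels were 7.73, 7.73, 7.36 and 7.88, and at 24 weeks 8.87, 7.90, 8.999 and 8.94. The 16-week arrays lay below all others, and at 24 weeks 3 arrays were back within or just above the control range while replicate 2, whose description reads 25 weeks, was near the 16-week level. The log2 difference from control at 16 weeks was -1.06 (SE 0.19), a fold of 0.479, with an adjusted p of 0.0032 by limma, and it passed under 30 of 30 alternatives. At 8 weeks the difference was -0.32 (SE 0.19, adjusted p = 0.749 by limma) and at 24 weeks -0.06 (SE 0.19, adjusted p = 0.918). In whole tissue, fewer cells of a type and less RNA per cell cannot be told apart, for this gene as for the others.

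Timp3, the inhibitor that stays bound to matrix and also acts on Adam proteases, passed in no comparison on any of its 4 probe sets. The standing probe set (1389836_a_at) ranged from 10.94 to 11.42 in control and from 10.82 to 11.82 at 8 weeks, the widest of its groups. It ranged from 11.11 to 11.44 at 16 weeks and from 11.31 to 11.65 at 24 weeks, so that all groups overlapped control. The log2 difference at 24 weeks was 0.32, with a 95% interval from -0.05 to 0.69 and an adjusted p of 0.377 by limma. Its other 3 probe sets gave log2 differences of 0.29, 0.41 and 0.35 at 24 weeks, the dimmest first.

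Mmp14, the membrane-bound enzyme that activates Mmp2 and cuts fibrillar collagen, was higher than in control at 16 weeks. Its brighter probe set (1367860_a_at) had centred log2 levels of 7.98, 7.53, 7.84 and 8.15 in control and 8.74, 8.17, 8.50 and 9.02 at 8 weeks. They were 9.16, 8.73, 8.44 and 8.45 at 16 weeks and 8.15, 8.31, 8.56 and 7.25 at 24 weeks. The arrays of 8 and 16 weeks lay above all control arrays, and so did 3 of the 24-week arrays, the lowest only just, while replicate 4 of 24 weeks was lowest of the 16. At 16 weeks the log2 difference from control was 0.82 (SE 0.25), with an adjusted p of 0.0456 by limma. At 8 weeks it was 0.74 (SE 0.25, adjusted p = 0.366 by limma), and 0.20 (SE 0.25, adjusted p = 0.747) at 24. The value at 24 weeks was 0.47 (adjusted p = 0.202 by limma) without replicate 4, and 0.73 (adjusted p = 0.348) with array level as a block.

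The call of Mmp14 at 16 weeks passed under 16 of 30 alternatives. It was lost without control replicate 1, 2 or 3, 8-week replicate 1 or 3, 16-week replicate 1 or 2, or 24-week replicate 1, with adjusted p from 0.0551 to 0.146 by limma, and without both higher-level arrays of 16 weeks the log2 difference was 0.57 with an adjusted p of 0.368.

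Mmp2, the gelatinase that Mmp14 and Timp2 help to activate, did not pass at any time. Its brighter probe set (1370301_at) had centred log2 levels of 9.32, 9.26, 8.95 and 9.79 in control and 9.39, 9.98, 9.55 and 10.03 at 8 weeks. They were 10.11, 10.49, 9.62 and 9.69 at 16 weeks and 9.61, 10.03, 9.93 and 9.38 at 24 weeks. Each ACF group overlapped control through control replicate 4, the highest control array. The log2 difference was 0.65 (SE 0.22) at 16 weeks, with a 95% interval from 0.19 to 1.10 and an adjusted p of 0.0714 by limma, 0.41 at 8 weeks and 0.40 at 24 weeks. With only arrays at the higher level it was 0.97 at 16 weeks (adjusted p = 0.0215 by limma), and without the higher-level arrays of 16 weeks 0.32 (adjusted p = 0.544). It passed at 16 weeks under 5 of 30 alternatives, among them without control replicate 4 (0.80, adjusted p = 0.0342) and without 16-week replicate 3 (0.77, adjusted p = 0.0499) or 4 (0.74, adjusted p = 0.0498).

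**Figure D2:**
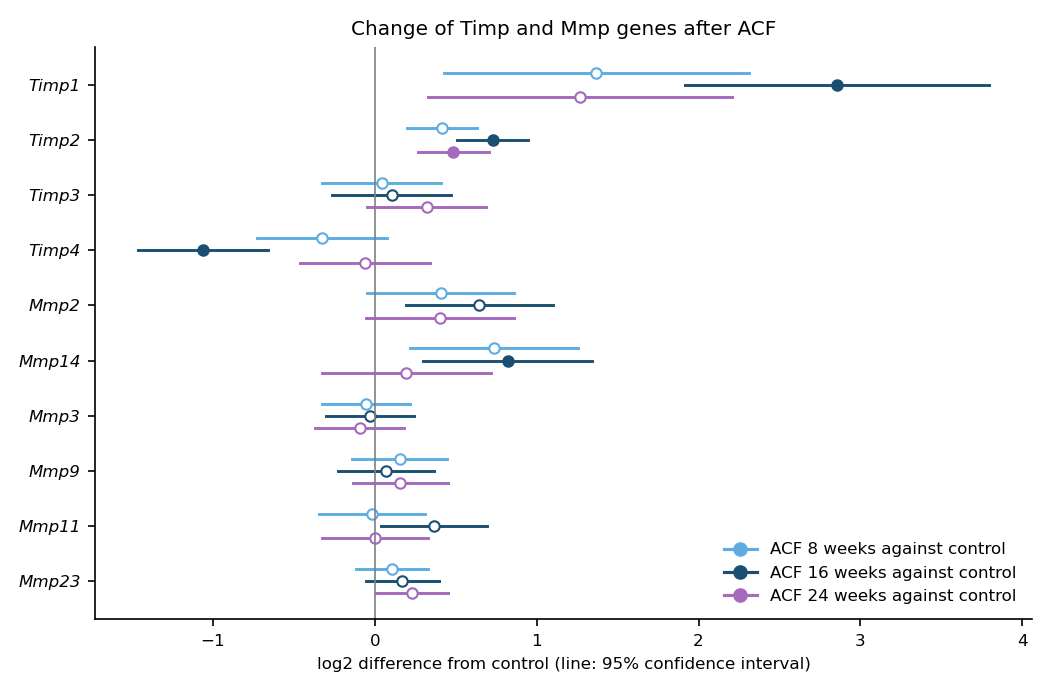
Log2 difference from control (horizontal axis) of the 10 genes at 8, 16 and 24 weeks after ACF, with the 95% confidence interval of the limma fit; filled points have an adjusted p under 0.05. The 5 filled points are Timp1, Timp2, Timp4 and Mmp14 at 16 weeks and Timp2 at 24 weeks.

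Mmp9, the gelatinase of leukocytes, and Mmp3, a stromelysin that can activate other metalloproteinases, were dim on every array. The probe set standing for Mmp9 (1369166_at) lay between the percentiles 4.16 and 13.1 of all probe sets of an array, and that of Mmp3 (1368657_at) between 3.06 and 12. The centred log2 level of Mmp9 was 3.26 to 3.41 in control and 3.45 to 3.53 at 8 weeks, where all arrays were above control, and 3.15 to 3.82 at 16 weeks and 3.17 to 3.73 at 24 weeks, where they lay on both sides. The log2 difference of Mmp9 at 8 weeks was 0.15 (SE 0.14, adjusted p = 0.889 by limma), and its other probe set (1398275_at) gave -0.03 there. At 24 weeks that other probe set was 0.18 higher than control with no overlap (SE 0.12, adjusted p over all probe sets = 0.483 by limma). The differences of Mmp3 were -0.05, -0.03 and -0.09 at 8, 16 and 24 weeks, all with intervals that held 0. The deposited values carry no detection calls, so whether either transcript was present at all was not tested.

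Mmp11, a stromelysin-type enzyme that is activated inside the cell, had centred log2 levels of 6.11 to 6.79 in control, 6.35 to 6.60 at 8 weeks, 6.61 to 7.03 at 16 weeks and 6.17 to 6.89 at 24 weeks. Its log2 difference was 0.36 (SE 0.16) at 16 weeks, with an adjusted p of 0.157 by limma, and -0.02 and -0.0011 at 8 and 24 weeks. Mmp23, a membrane-tethered enzyme without the usual hemopexin domain, had differences of 0.11, 0.17 and 0.23 at 8, 16 and 24 weeks, the last with a 95% interval from 0.01 to 0.45 and an adjusted p of 0.294 by limma. Its levels were 7.01 to 7.23 in control and 7.18 to 7.57 at 24 weeks, where 3 of 4 arrays lay above control.

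Of the 10 genes, 6 had more than 1 probe set, and these did not always move alike. The dimmer Timp2 probe set (1367823_at) gave log2 differences of 0.19, 0.44 and 0.53 at 8, 16 and 24 weeks, all in the direction of the brighter one and none past the threshold over all probe sets. The dimmer Mmp14 probe set (1378225_at) gave 0.14, 0.21 and -0.03, so that its difference at 16 weeks was smaller than the 0.82 of the brighter one. The dimmer Mmp2 probe set (1369825_at), with a mean level of 5.44 against 9.70, gave -0.04, 0.06 and -0.14. For Mmp23 the probe sets disagreed at 24 weeks, where 1392265_s_at was 0.47 higher than control with no overlap (SE 0.12, adjusted p over all probe sets = 0.0848 by limma) while the dimmest, 1381451_at, was -0.32 (SE 0.17).

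**Figure D3:**
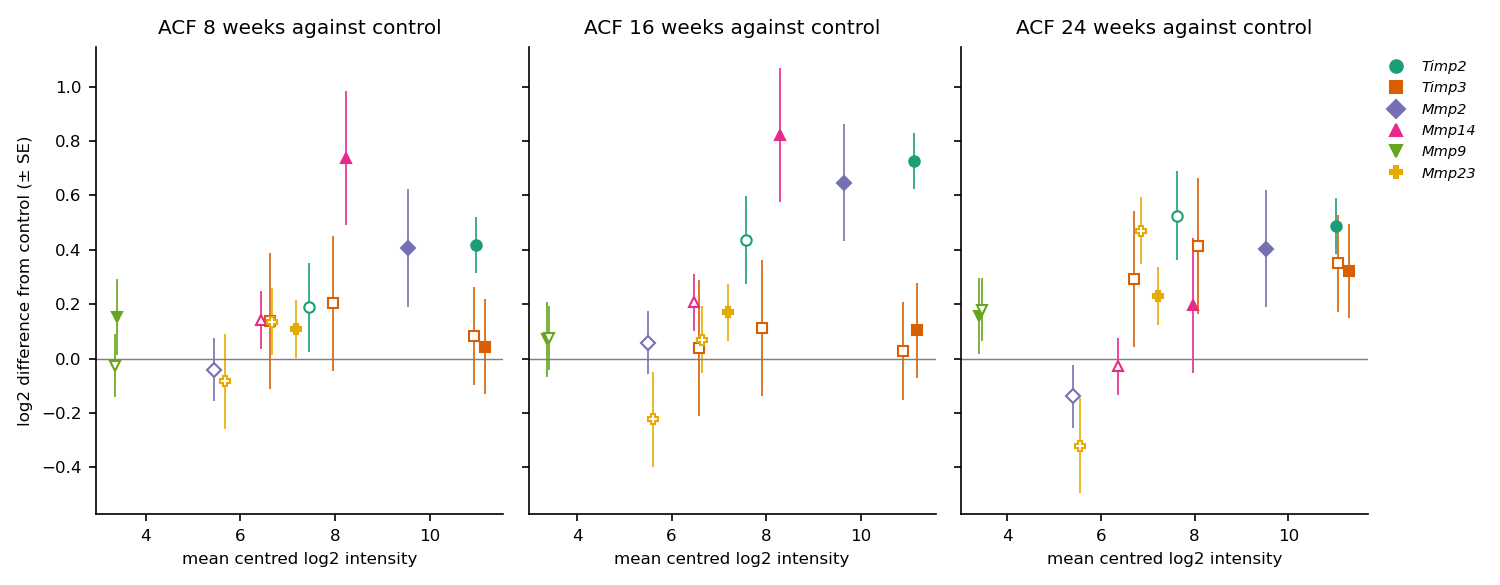
Log2 difference from control (vertical axis, ± SE of the limma fit) against mean centred log2 intensity (horizontal axis) for every probe set of the 6 genes with more than 1, at 8, 16 and 24 weeks. Filled symbols are the probe sets standing for a gene, and at 16 weeks the brighter probe sets of Timp2, Mmp2 and Mmp14 lie above the dimmer ones of the same gene.

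Between times after ACF, no member passed, and of all genes 0% passed between 16 and 8 weeks, 0% between 24 and 16 weeks and 0% between 24 and 8 weeks (limma). By limma 4, 5 and 1 members had an unadjusted p under 0.05 in these comparisons, as had 1234, 1279 and 777 of all genes, and the methods' test called 0, 1 and 0 genes after adjustment, none of them a member. Timp4 had the smallest p of the members, and was 1.00 higher on the log2 scale at 24 than at 16 weeks (SE 0.19, adjusted p = 0.092 by limma). Without 24-week replicate 2 that difference was 1.26 with an adjusted p of 0.000333, and between the lower-level arrays alone it was 1.06, where no member passed. From 8 to 16 weeks Timp4 differed by -0.74 (SE 0.19, adjusted p = 0.259 by limma), and without 24-week replicate 2 in the fit the adjusted p was 0.0376. With only arrays at the higher level it was -0.74 with an adjusted p of 0.0184 by limma.

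Timp1 was 1.49 higher at 16 than at 8 weeks (SE 0.45, adjusted p = 0.362 by limma) and -1.59 from 16 to 24 weeks (SE 0.45, adjusted p = 0.312), with 3 of 4 arrays outside the range of the other group each time. These values moved with the pair of arrays of 16 weeks that was kept: from 16 to 24 weeks the difference was -0.46 between the lower-level arrays alone, and -2.71 (adjusted p = 0.000239 by limma) without the lower-level arrays of 16 weeks. From 8 to 16 weeks it was 2.61 (adjusted p = 0.000519 by limma) without those lower-level arrays, and 0.36 (adjusted p = 0.986) without the higher-level arrays of 16 weeks. Timp2 was 0.31 higher at 16 than at 8 weeks (SE 0.10, adjusted p = 0.403 by limma), Mmp11 0.38 higher (SE 0.16, adjusted p = 0.491), and Mmp14 -0.63 from 16 to 24 weeks (SE 0.25, adjusted p = 0.489). That difference of Mmp14 was -0.35 without 24-week replicate 4 and -0.38 between the lower-level arrays alone.

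Protease and inhibitor were also set against each other within each array, as a log2 difference of an enzyme minus an inhibitor, which shows unequal change and not a ratio of molecules. Mmp9 minus Timp1 lay below all control arrays at each time, with shifts of -1.21, -2.79 and -1.11 in order of time (exact permutation test, p = 0.0286 each, adjusted over 12 tests 0.0857). Since Mmp9 itself was dim and moved by at most 0.16, these values carry mainly the level of Timp1. Mmp2 minus Timp4 was 0.54, 0.62, 0.29 and 0.92 on the control arrays and 2.38, 2.76, 2.26 and 1.81 at 16 weeks, with no overlap. That is a shift of 1.71 (exact permutation p = 0.0286, adjusted 0.0857), beside shifts of 0.73 (adjusted 0.137) at 8 weeks and 0.46 (adjusted 0.429) at 24 weeks. The shift at 24 weeks was 0.10 without 24-week replicate 2 and 0.19 with the probe sets of a gene averaged. Mmp2 minus Timp2 shifted by -0.01, -0.08 and -0.08, and Mmp14 minus Timp2 by 0.32, 0.09 and -0.29, all with overlapping arrays. With the probe sets of a gene averaged, Mmp2 minus Timp2 shifted by -0.12, -0.23 and -0.37 and Mmp14 minus Timp2 by 0.14, -0.0678 and -0.42, with an adjusted exact permutation p of 0.0571 for both at 24 weeks. None of the 12 tests passed after adjustment by either choice, with lowest adjusted values of 0.0857 and 0.0571. The exact p of 4 against 4 arrays cannot fall under 0.0286, so passing needed complete separation in most of the 12. No conclusion is drawn from the lack of a pass.

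**Figure D4:**
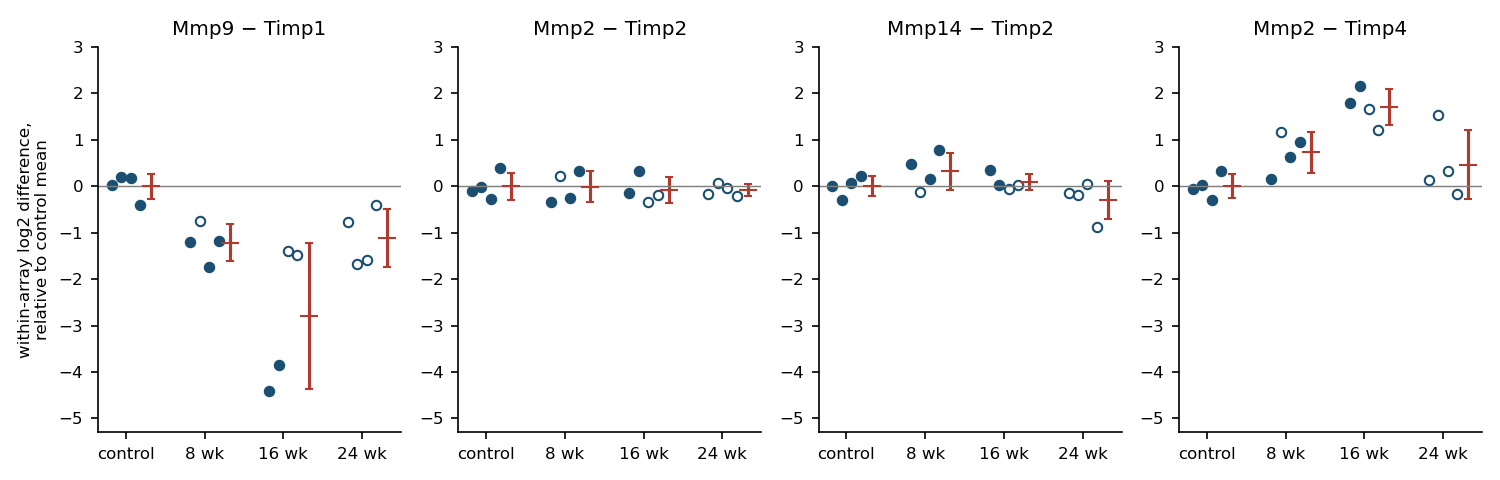
Within-array log2 difference of an enzyme minus an inhibitor, shifted so that the mean of the control arrays is 0 (vertical axis), for 4 pairs and 4 groups; filled points are arrays at the higher median level, open points at the lower level, and the red mark is the mean ± SD. Mmp9 minus Timp1 lies below control in all 12 ACF arrays, Mmp2 minus Timp4 is highest at 16 weeks, and both differences with Timp2 overlap control throughout.

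Of the 16 other Mmp genes listed, 11 were measured, and at 16 weeks 1 was higher and 1 lower, where 5.83% and 3.26% of all genes were. The higher one was Mmp12, the elastase of macrophages, with a log2 difference of 1.37 (SE 0.32, adjusted p = 0.0133 by limma), and the lower one was Mmp15, a membrane-bound enzyme like Mmp14, with -0.44 (SE 0.12, adjusted p = 0.0298). The list's median difference was 0.01, beside -0.002 for all genes, and none passed at 8 or 24 weeks. Of 19 Adam and Adamts proteases measured, Adamts4, which cuts aggrecan and versican, was 0.87 higher (SE 0.15) and Adamts19 0.82 higher (SE 0.17) at 16 weeks, with adjusted p of 0.00247 and 0.00821 by limma. The median difference of this list was 0.20, and neither list had a call at the other times.

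Other inhibitors and regulators of metalloproteinases gave 2 higher of 15 measured at 16 weeks, beside 5.83% of all genes, with a median log2 difference of 0.21. Reck, a membrane-anchored inhibitor of Mmp2, Mmp9 and Mmp14, was 0.48 higher (SE 0.11, adjusted p = 0.0134 by limma) and again 0.50 higher at 24 weeks (adjusted p = 0.0442), and Lrp1, a receptor that clears Mmp2 and Mmp9 complexes, was 0.74 higher at 16 weeks (SE 0.18, adjusted p = 0.019). Of 13 genes of the plasminogen system and of proprotein activators, 4 were higher at 16 weeks, beside 5.83% of all genes, and none at the other times. The median was 0.23 at 16 weeks. The 4 higher genes were the serine protease Prss23 (1.28), the urokinase receptor Plaur (0.54), the protease Htra3 (0.54) and tissue plasminogen activator, Plat (0.75), as log2 differences.

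Elastic fibre genes had 10 of 21 measured members higher at 16 weeks and none lower, beside 5.83% and 3.26% of all genes. Their median log2 difference was 0.45. Lox and Loxl1, enzymes that cross-link elastin, were 2.00 (SE 0.27) and 1.72 (SE 0.22) higher, and the microfibril genes Fbn1 and Mfap5 1.62 (SE 0.21) and 1.30 (SE 0.20), each with an adjusted p under 0.05 by limma. Fbn1 alone passed at 8 weeks (1.31), and Fbn1 (0.94), Loxl1 (1.09) and Mfap5 (0.91) at 24 weeks. Higher among all genes were 0.0492% at 8 weeks and 0.612% at 24 weeks. Cathepsins and elastases had 6 of 14 higher at 16 weeks and none lower, beside 5.83% and 3.26% of all genes, with a median of 0.22. Among the 6 were Ctss (1.11) and Ctsb (0.74), lysosomal proteases, the collagen-cutting Ctsk (0.80) and Ctsl (0.86). Of these Ctss, Ctsb and Ctsk also passed at 24 weeks, at 0.75, 0.51 and 0.59. Of 18 cytokines and growth factors that can induce the family, 2 were higher at 16 weeks, beside 5.83% of all genes: the matricellular growth factor Ccn2 (2.36) and Tgfb2 (0.98), and Ccn2 alone at 24 weeks (1.70). The median of that list at 16 weeks was 0.10.

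Markers of cells other than myocytes moved with the ACF groups too. Of 12 macrophage markers, 11 were higher at 16 weeks, with a median log2 difference of 1.18, 2 at 8 weeks (Mrc1 and C1qa) and 4 at 24 weeks. Among all genes, 5.83%, 0.0492% and 0.612% were higher at 16, 8 and 24 weeks. The mean centred log2 level of the macrophage list was 7.56 to 7.86 in control, 8.41 to 8.67 at 8 weeks, 8.56 to 9.39 at 16 weeks and 8.08 to 8.63 at 24 weeks. On replicates 1 to 4 of 16 weeks it was 9.39, 9.06, 8.56 and 8.72, so that both arrays with the highest Timp1 were also the highest for this list. Of 12 fibroblast markers, 6 were higher at 16 weeks, led by Postn (4.28), and Postn alone passed at 24 weeks (2.66), with a median log2 difference of 0.49 at 16 weeks. The mean level of this list was 9.05 to 9.58 in control, 9.43 to 9.92 at 8 weeks, 9.72 to 10.16 at 16 weeks and 9.50 to 9.95 at 24 weeks. On replicates 1 to 4 of 16 weeks it was 10.01, 10.16, 9.83 and 9.72. The 2 arrays with the highest Timp1 were thus also the highest for the fibroblast list, as for the macrophage list. The part of these cells in the changes of Timp1, Timp2 and Mmp14 was not tested.

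The other marker lists moved less. None of the 7 neutrophil markers passed at any time, with list means of 5.36 to 6.15 in control, 5.19 to 6.88 at 8 weeks, 5.94 to 6.51 at 16 weeks and 5.73 to 6.15 at 24 weeks, and none of 14 cardiomyocyte, 7 smooth muscle or 4 erythroid markers. Of 10 mast cell markers, Tpsb2 was lower at 16 weeks (-0.41), and of 8 endothelial markers Vwf was higher at 16 (1.31) and 24 weeks (1.19). Among all genes, 3.26% were lower and 5.83% higher at 16 weeks, and 0.612% higher at 24 weeks. The mean of the cardiomyocyte list was 13.70 to 13.79 in control, 13.64 to 13.82 at 8 and 13.41 to 13.76 at 16 weeks, and 13.69 to 13.77 at 24. The part of myocyte content in the difference of Timp4 was not tested.

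For the 4 members with the smallest adjusted p, the genes with the most alike pattern were ranked by Pearson's r of centred values across the 16 arrays, over 13978 named genes. The points share the group differences and the array levels, so r is a description. Nearest to Timp2 were Anxa1 (0.963), Mfap5 (0.961), Slc66a3 (0.958), Mrc1 (0.955) and Anxa2 (0.953). Nearest to Timp1 were Fstl3 (0.956), Pfkp (0.955), Cd68 (0.955), Reg3b (0.951) and Tubb6 (0.949). The values for Timp4 were lower, with Auh (0.83), Art5 (0.828), Sys1 (0.82), Igsf1 (0.82) and Aamdc (0.812), and those for Mmp14 were Ms4a7 (0.876), P2ry6 (0.874), Ryr3 (0.868), Tppp3 (0.862) and Plpp5 (0.86).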

How the data were processed

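Left ventricle was profiled on 16 Affymetrix rat arrays, each taken as 1 rat. Their probe sets are those of another design than the one the study's methods name. The deposited values are log2 intensities, made by the authors with RMA (background correction, quantile normalization and probe set summaries) in version 1.2 of Affymetrix Expression Console. Their array medians still lay at 2 levels, and whether all 16 arrays were normalized together was not tested. Of 31099 probe sets, 57 manufacturer controls were left out, 20826 carried 1 symbol, 436 several and 9780 none.

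Each array was centred on its median, and the probe set with the highest mean stood for a gene, which gave 14217 genes. A model with 1 mean per group was fitted with limma 3.58.1 in R 4.3.3, and p was adjusted by the Benjamini-Hochberg method over all genes, with a threshold of 0.05. The members and lists were chosen with earlier results of these data known. The text names all members, up to 4 genes of each list with the smallest adjusted p against control, any listed gene where a count was 3 or fewer, and the 5 genes most alike to each of 4 members. Alternatives were values without centring, the methods' test, only the 8 arrays compared, another variance prior, the upper 50% of genes, a replicate block, cyclic loess, array weights, other uses of several probe sets, a fold change above 1.5, the array level, and leaving out each array. Those that keep only the lower-level arrays, or leave out a pair of 16-week arrays, were chosen after seeing the data. The replicate numbers were not used as pairs. On simulated data, 91%, 92.5% and 97% of the 67 genes changed 2-fold were recovered at 8, 16 and 24 weeks among 14217 genes. The simulation changed 200 genes and used independent normal noise of 1 spread per gene for all groups, without the 2 array levels. Recovery under the unequal spread and the array levels of the deposited data was not tested. The number of arrays limits the precision. Promoters are from RefSeq (GRCr8), and figures were drawn with matplotlib 3.10.9.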

Additional observations from a re-analysis of the deposited data

Results flagged for a closer look

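Among 40 groups of 4 arrays (10 genes in 4 groups), the highest or lowest array stood apart by Dixon's criterion in 2, where chance gives about 1 in 20 groups. Timp4 on ACF 24 weeks replicate 2 had a centred log2 level of 7.90, below the other 3 arrays of its group at 8.87 to 8.999. Mmp3 on control replicate 3 had a level of 3.78, above the other control arrays, in a gene that was dim throughout.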

How the results depend on the processing

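Of the members called against control, Timp2 and Timp4 at 16 weeks passed under 30 of 30 alternatives, Timp1 at 16 weeks under 29 of 30, Mmp14 at 16 weeks under 16 of 30 and Timp2 at 24 weeks under 17 of 27. The cause of the changes below was not tested.

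The count of members past the threshold at 8 weeks, 0, became 1 with only the 8 arrays compared, with array level as a block or with only arrays at the higher level, and 2 with array weights. At 16 weeks, 4 became 2 by the methods' test. At 24 weeks, 1 became 0 without centring, by the methods' test or with a fold change above 1.5, and 2 with array weights. Leaving out 1 array gave 0 to 1 members at 24 weeks, and 0 to 1 both from 8 to 16 and from 16 to 24 weeks, where 24-week replicate 2 gave the 1. From 8 to 16 weeks it became 2 with only arrays at the higher level, and 1 without the lower-level arrays of 16 weeks, as from 16 to 24 weeks.

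Over all genes, the count at 8 weeks, 8, became 1 without centring, 0 by the methods' test, 72 with only the 8 arrays compared, 16 in the upper 50% of genes, 186 with array weights, 5 with probe sets averaged by gene, 30 with array level as a block, 46 with only arrays at the higher level, and 1 (any of control replicates 1 to 3 or 8-week replicates 1 and 3) to 21 (24-week replicate 2) with 1 array left out. At 16 weeks, 1292 became 220 by the methods' test, 695 with a fold change above 1.5, 199 without the higher-level arrays of 16 weeks, and 646 (control replicate 1) to 1573 with 1 array left out. At 24 weeks, 129 became 1675 without centring, 0 by the methods' test, 79 in the upper 50% of genes, 828 with array weights, 2 with array level as a block, and 5 (control replicate 1) to 559 (24-week replicate 4) with 1 array left out. From 8 to 16 weeks, 0 became 1 with the trended prior, in the upper 50% of genes or with array weights, 236 with only arrays at the higher level, 196 without the lower-level arrays of 16 weeks, and 0 to 9 with 1 array left out. From 16 to 24 weeks, 0 became 1 by the methods' test or with only the 8 arrays compared, 4 over every probe set, 2 with only arrays at the lower level, 221 without the lower-level arrays of 16 weeks, and 0 to 6 with 1 array left out.

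The signs that turned belonged to differences that were not called. At 8 weeks Timp3 became -0.0131 without centring, -0.0115 with array level as a block and -0.17 with only arrays at the higher level, and -0.17 to 0.16 with 1 array left out, as Mmp3 gave -0.11 to 0.0858 and Mmp11 -0.14 to 0.0882. At 16 weeks Timp3 became -0.0138 without centring, -0.0055 with array level as a block and -0.0224 without the higher-level arrays of 16 weeks. Mmp3 became 0.0158 with array level as a block, 0.0483 with only arrays at the higher level or without the lower-level arrays of 16 weeks, and -0.0895 to 0.11 with 1 array left out. Mmp9 became -0.0474 without centring, -0.0682 with array level as a block, -0.15 with only arrays at the higher level or without the lower-level arrays of 16 weeks, and -0.0694 to 0.15 with 1 array left out. At 24 weeks Timp4 became 0.11 with array level as a block and -0.17 to 0.20 with 1 array left out, Mmp14 -0.0109 without centring, Mmp9 -0.0484 without centring and -0.12 with array level as a block, Mmp3 -0.17 to 0.0455 with 1 array left out, and Mmp11 0.0061 with cyclic loess, 0.0387 with array level as a block and -0.14 to 0.10 with 1 array left out. From 8 to 16 weeks Mmp14 became -0.0031 with array weights, -0.17 without the higher-level arrays of 16 weeks, and -0.0691 to 0.22 with 1 array left out. From 8 to 24 weeks Timp1 became 1.05 with array level as a block and -0.24 to 0.0622 with 1 array left out, and Timp2 -0.0805 without centring. Within arrays, Mmp2 minus Timp2 gave -0.12 to 0.12 at 8 weeks, -0.22 to 0.0515 at 16 weeks and -0.17 to 0.0515 at 24 weeks, and Mmp14 minus Timp2 at 16 weeks -0.0064 to 0.16, with 1 array left out, and -0.0678 with probe sets averaged by gene.

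The replicate numbers did not pair the arrays, since 5 of 24 same-numbered pairs had deviations that correlated over 0.1 (range -0.322 to 0.236) and 5 of 16 arrays correlated best with their own number. With the replicate number as a block, 0, 3 and 1 members passed at 8, 16 and 24 weeks, and 2, 1288 and 109 of all genes, with Mmp14 the call lost (adjusted p = 0.0597 by limma). Signal over background was not given, which leaves the dim Mmp3 and Mmp9 without a limit of detection, and 4 arrays a group bound the precision throughout.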

Other observations

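In the rat annotation, Timp1 lies within Syn1, Timp4 within Syn2 and Timp3 within Syn3, genes of synaptic vesicle proteins, while no such host was found for Timp2. Chosen after their values were seen, these 3 genes differed from control by -0.19 to 0.09 on the log2 scale at 8, 16 and 24 weeks, and none passed (limma). Syn1 differed by 0.05 at 16 weeks (SE 0.12, adjusted p = 0.857 by limma), where Timp1 was 2.86 higher. Syn2 differed by 0.07 (SE 0.10, adjusted p = 0.716 by limma), where Timp4 differed by -1.06. Their levels were 4.17 to 5.67, below the common median of the arrays, which limits what can be read from them.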
